A study of Mus musculus with 2 samples.

Results

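The genes described here encode 8 regulators of the adrenal cortex lineage: Nr5a1, Nr0b1, Gata4, Gata6, Wt1, Cited2, Tcf21 and Cbx2. They were taken by name from the 55536 annotated genes of the deposited tables, by a rule that uses no measured value, though with earlier results of these data known, and all 8 were found. Total RNA was sequenced from adrenal gland of male B6CASTF1/J mice (B6Cast F1), a first-generation hybrid of the C57BL/6 and CAST strains, at 10 days of age. The samples form a single group of 2 libraries, each made from 300 ng of RNA, with no treatment or altered gene named, so no condition was compared and no test between conditions was possible. The labels number the animals 3 and 4 but give both library descriptions the animal number 3 and both samples 1 donor identifier, so the spread between the libraries may be technical.

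The adrenal cortex arises from the coelomic epithelium beside the urogenital ridge, next to the cells that form the gonad. NR5A1, also called SF1, is the nuclear receptor that starts and maintains steroid-producing cells, and loss of Nr5a1 in mice leaves them without adrenal glands. WT1, CITED2 and CBX2 act on Nr5a1 in the primordium, NR0B1 (DAX1) restrains NR5A1, GATA4 and GATA6 are zinc-finger activators of steroidogenic genes, and TCF21 marks stromal cells of the capsule.

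The deposited gene tables held 36982665 expected counts in replicate 1 and 38984236 in replicate 2. All 10 markers of steroid-producing cortex cells stood at 1 TPM (the authors' level per transcript length, scaled to the same total in each library) or more in both libraries, with Hsd3b1 and Star the most abundant. Their summed level was 7579 TPM in replicate 1 and 6579 TPM in replicate 2, so cortex transcripts were present in both libraries. All 8 hepatocyte and all 6 brown adipocyte markers also reached 1 TPM in both, so this threshold does not tell the tissues apart. In replicate 2 the hepatocyte sum was above the cortex sum. Markers of other tissues were present and uneven. The 8 hepatocyte markers, led by Alb and Ahsg, summed to 4361 and 13682 TPM in replicates 1 and 2, the 6 skeletal muscle markers to 289 and 785 TPM, and the 7 bone and cartilage markers to 1.44 and 54.8 TPM. The 6 markers of granulocytes and macrophages summed to 32.0 and 91.2 TPM and the 8 of capsule and fibroblasts to 493 and 1040 TPM. Smaller differences were seen for the 8 chromaffin markers (1526 and 1273 TPM), the 6 brown adipocyte markers (5254 and 4851 TPM) and the 6 of blood and endothelium (2508 and 2585 TPM). In bulk tissue, fewer cells of a type and less RNA per cell cannot be told apart.

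The sequences that separate the annotated protein-coding forms of 2 of the regulators bear on the transcript values given further on. In Wt1 an alternative splice site adds 9 bases at the end of an exon (chr2:105170010-105170018, plus strand, mm10), which give the tripeptide KTS between the last zinc fingers of the protein. The form with the insertion is known for binding RNA and the form without it for binding DNA. The junction is shown for a transcript of each kind, 5′ to 3′ from the GENCODE M21 transcripts, with the inserted bases in capitals.
Wt1-205: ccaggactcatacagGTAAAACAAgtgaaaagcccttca
Wt1-202: ccaggactcatacaggtgaaaagcccttca

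In Gata4 a similar choice of splice site adds 3 bases to an inner coding exon (chr14:63204756-63204758, minus strand, mm10). The added bases are in capitals, and the coding length is 1326 bases with them and 1323 bases without.
Gata4-201: gacaccccaatctcgTAGatatgtttgatg
Gata4-202: gacaccccaatctcgatatgtttgatg

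The 8 regulators spanned a wide range of level. Nr5a1 was the most abundant, Cited2 and Gata6 followed at about the same level, Tcf21, Nr0b1 and Cbx2 stood between 1 and 6 TPM in each library, and Wt1 and Gata4 were lowest. At least 1 TPM in both libraries was reached by 6 of the 8, the exceptions being Wt1 and Gata4, against 24.6% of all annotated genes. That share includes non-coding genes, while all 8 regulators are protein-coding. Gata4, the lowest at a mean of 1.00 TPM, ranked 12846 among 22015 nuclear protein-coding genes, with 41.6% of them below it. A level of 1 TPM is therefore common among protein-coding genes.

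Nr5a1 (ENSMUSG00000026751.14, chr2:38692656-38714542, minus strand, mm10) had levels of 119 and 109.8 TPM in replicates 1 and 2, with mean 114 ± 6.39 TPM (SD, n = 2). It ranked 471 among 22015 nuclear protein-coding genes by mean TPM. The libraries lay close together and far above every other regulator of the group.

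Nr0b1 (ENSMUSG00000025056.4, chrX:86191764-86195947, plus strand) had levels of 3.96 and 2.81 TPM in replicates 1 and 2, with mean 3.38 ± 0.813 TPM (SD, n = 2). Its single annotated transcript held all of its reads, and its product lacks the DNA-binding zinc fingers of other nuclear receptors. Within a library, the level of Nr5a1 exceeded that of Nr0b1 by 4.91 and 5.29 log2 units in replicates 1 and 2, on average 5.10 ± 0.27 (SD, n = 2). The receptor therefore stood above its repressor by about 34.2-fold at the transcript level.

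NR5A1 binds single copies of the nuclear receptor site AGGTCA, and the promoter of Nr0b1 is shown because that gene is known to respond to NR5A1. The 250 bases before its start site are from RefSeq (GRCm38.p6, chrX:86191525-86191774, plus strand), with AGGTCA and the TATA sequence TATAAA in capitals.
Nr0b1: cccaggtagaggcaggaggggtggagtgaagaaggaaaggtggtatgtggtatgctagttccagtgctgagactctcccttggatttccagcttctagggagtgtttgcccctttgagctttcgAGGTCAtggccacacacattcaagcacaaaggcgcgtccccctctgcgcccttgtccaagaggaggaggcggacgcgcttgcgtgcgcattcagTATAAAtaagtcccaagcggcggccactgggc

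AGGTCA lay at -126 to -121 and TATAAA at -32 to -27 from the start site. Searched on both strands, AGGTCA was found in 14.02% and TATAAA in 12.4% of 32851 RefSeq promoter windows of 250 bases. The same table held Cited2 and Tcf21. The GATA sequence AGATAA lay at -31 to -26 in Tcf21 and is found in 9.99% of windows, and the E-box CAGCTG, found in 13.0%, was in none of the 3. Cited2 had no match to any of the 4 motifs. These matches describe letters and say nothing of binding.

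Gata6 (ENSMUSG00000005836.10, chr18:11052064-11085635, plus strand) had levels of 23.1 and 19.1 TPM in replicates 1 and 2, with mean 21.1 ± 2.76 TPM (SD, n = 2). Gata4 (ENSMUSG00000021944.15, chr14:63198922-63271692, minus strand) had levels of 0.72 and 1.29 TPM in replicates 1 and 2, with mean 1.00 ± 0.403 TPM (SD, n = 2). Gata6 was thus the abundant GATA factor of this pair in both libraries. It exceeded Gata4 by 5.0 and 3.89 log2 units in replicates 1 and 2, on average 4.45 ± 0.78 (SD, n = 2).

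Wt1 (ENSMUSG00000016458.14, chr2:105126529-105173616, plus strand) had levels of 1.5 and 0.93 TPM in replicates 1 and 2, with mean 1.21 ± 0.403 TPM (SD, n = 2). These levels rest on 107 and 86 expected counts. The effective length the authors' table gives to Wt1 was 1948 bases in replicate 1 and 2492 bases in replicate 2, so the TPM moved more (a ratio of 0.62) than the scaled counts (0.804). WT1 is also made by mesothelium and podocytes. All 8 mesothelial markers, led by Msln and Cldn15, were at 1 TPM or more in both libraries and summed to 20.6 TPM in replicate 1 and 23.4 TPM in replicate 2. Of 7 podocyte markers, 4 reached 1 TPM in both, with sums of 64.9 and 72.1 TPM carried by Cldn5 and Podxl, which endothelium also makes. The slit diaphragm gene Nphs1 was at or near 0, with 0 and 2 counts.

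Cited2 (ENSMUSG00000039910.10, chr10:17723218-17725674, plus strand), whose product links p300/CBP to WT1 and other factors, had levels of 25.2 and 20.4 TPM in replicates 1 and 2, with mean 22.8 ± 3.43 TPM (SD, n = 2). Nr5a1 stood above it by 2.24 and 2.43 log2 units in replicates 1 and 2. Cited2 and Gata6 overlapped in level between the libraries, with a ratio of mean TPM of 1.08.

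Tcf21 (ENSMUSG00000045680.8, chr10:22817281-22820174, minus strand), a basic helix-loop-helix factor, had levels of 4.80 and 5.48 TPM in replicates 1 and 2, with mean 5.14 ± 0.481 TPM (SD, n = 2). Cbx2 (ENSMUSG00000025577.7, chr11:119022962-119031270, plus strand), a chromodomain subunit of Polycomb repressive complex 1, had levels of 1.91 and 2.24 TPM in replicates 1 and 2, with mean 2.08 ± 0.233 TPM (SD, n = 2). Both were higher in replicate 2 by less than counting error, as given below for the replicate ratios.

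In the order of mean TPM, Nr5a1, Cited2, Gata6, Tcf21, Nr0b1, Cbx2, Wt1 and Gata4, the library ranges of neighbours overlapped for Cited2 with Gata6 and for Wt1 with Gata4. Wt1 was above Gata4 by 2.08-fold in replicate 1 and at 0.721-fold of it in replicate 2. The other 5 neighbouring pairs kept apart by their TPM values, with ratios of mean TPM from 1.52 for Tcf21 over Nr0b1 to 5.01 for Nr5a1 over Cited2. Within replicate 1 the ratio was 1.21 for Tcf21 over Nr0b1 and 1.27 for Cbx2 over Wt1. Within replicate 2 it was 1.25 for Nr0b1 over Cbx2. For each of these pairs the authors' intervals of TPM, whose level is not stated, overlapped in the library named.

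**Figure D1:**
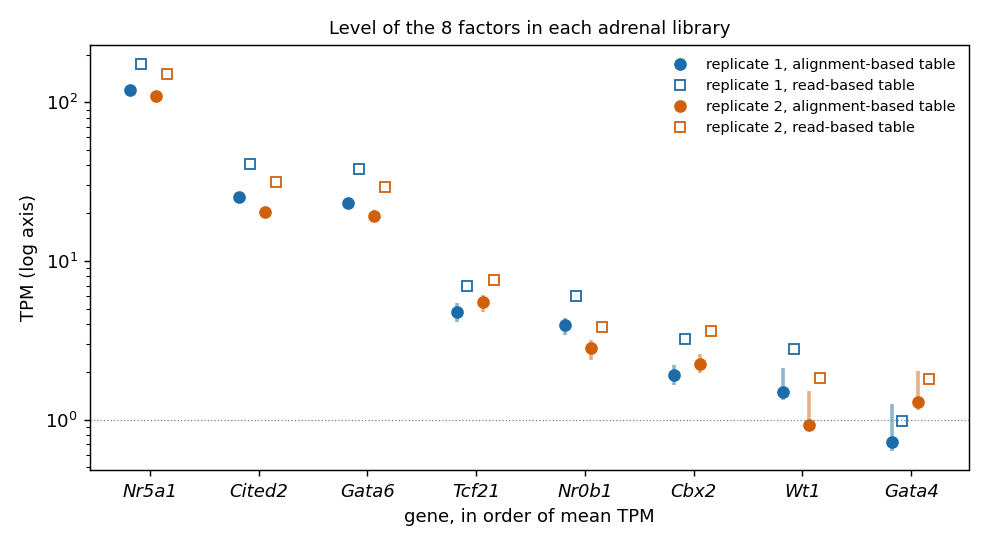
Level of each regulator in TPM on a log axis, 1 point per replicate, with filled points from the alignment-based gene table and open squares from the read-based transcript table summed per gene. Nr5a1 lies near 114 TPM, Cited2 and Gata6 near 22.8 and 21.1 TPM, and Wt1 and Gata4 near 1.21 and 1.00 TPM.

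The replicates were set against each other to show how reproducible each level is, from expected counts scaled by TMM (a trimmed mean of ratios over all genes). Of the 13188 genes whose mean count reached 100, 7.62% were over 1.5-fold higher in replicate 2 and 0.849% over 1.5-fold lower, and 4.37% and 0.114% were past 2-fold. None of the 6 regulators with that many counts was past 1.5-fold in either direction. All 8 had more than 10 counts, where the background past 1.5-fold was 11.9% higher and 4.37% lower and past 2-fold 6.49% and 1.24%. At that minimum Gata4 alone was past 1.5-fold and no regulator past 2-fold. The intervals that follow are exact binomial (Clopper-Pearson) 95% intervals and cover counting error only.

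Gata4 had 64 and 120 expected counts in replicates 1 and 2, or 1.88-fold (1.37 to 2.58). It was higher in replicate 2, as were the marker sums of hepatocytes (3.14-fold in summed TPM), skeletal muscle (2.72-fold), capsule and fibroblasts (2.11-fold) and mesothelium (1.13-fold). The capsule and fibroblast sum is carried by the collagens Col1a1 (a ratio of 2.53) and Col1a2 (2.31), which bone also makes, and the bone and cartilage sum was 38.1-fold higher. Over the 8 capsule and fibroblast markers the median log2 ratio was 0.46, with Pdgfra at a ratio of 0.981 and Gli1 at 1.01. Of 8 cardiomyocyte markers, 2 reached 1 TPM in both libraries, with sums of 5.89 and 8.36 TPM and with Nppa and Nkx2-5 at 0 counts. Of 9 markers of gonad somatic cells, 1, Insl3, reached 1 TPM in both, with sums of 3.32 and 4.16 TPM and with Dmrt1 and Fshr at 0 counts. The part of any of these cells in the Gata4 ratio was not tested.

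Nr0b1 had 248 and 178 counts, a ratio of 0.718 (0.589 to 0.874). Cited2 had 1725 and 1407 counts, a ratio of 0.816 (0.760 to 0.876). Gata6 had 2278 and 2090 counts, a ratio of 0.918 (0.865 to 0.975). Nr5a1 had 12166 and 11442 counts, a ratio of 0.941 (0.918 to 0.966). These genes were lower in replicate 2 beyond counting error. How many of all genes fall outside counting error was not counted. Over the 13188 genes whose mean count reached 100, the median size of the log2 ratio, sign ignored, was 0.13. Nr5a1 (-0.09) and Gata6 (-0.12) moved less than that, and Cited2 (-0.29) and Nr0b1 (-0.48) moved more. The summed TPM of the cortex markers, without TMM scaling, was 0.868-fold in the same direction. By scaled counts, as used for the regulators, the 10 cortex markers had a median log2 ratio of -0.14. Whether the cortex share of the sample has a part in the ratios of these regulators was not tested.

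The remaining 3 regulators had intervals that include 1. Tcf21 had 206 and 239 counts, a ratio of 1.16 (0.960 to 1.41). Cbx2 had 252 and 289 counts, a ratio of 1.15 (0.966 to 1.36). Wt1 had a ratio of 0.804 (0.599 to 1.08). The authors' own intervals of TPM, whose level is not stated, overlapped between the replicates for Tcf21, Cbx2, Wt1 and Gata4 and did not for the other 4. Those of Gata4 ran from 0.635 to 1.26 TPM in replicate 1 and from 1.15 to 2.03 TPM in replicate 2. The share of all genes whose intervals stood apart was not counted, so the overlaps describe each gene alone. In all, 3 of the 8 were higher and 5 lower in replicate 2, with a median log2 ratio of -0.11, beside a median of 0.00 over 21874 genes with more than 3 counts in either library.

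**Figure D2:**
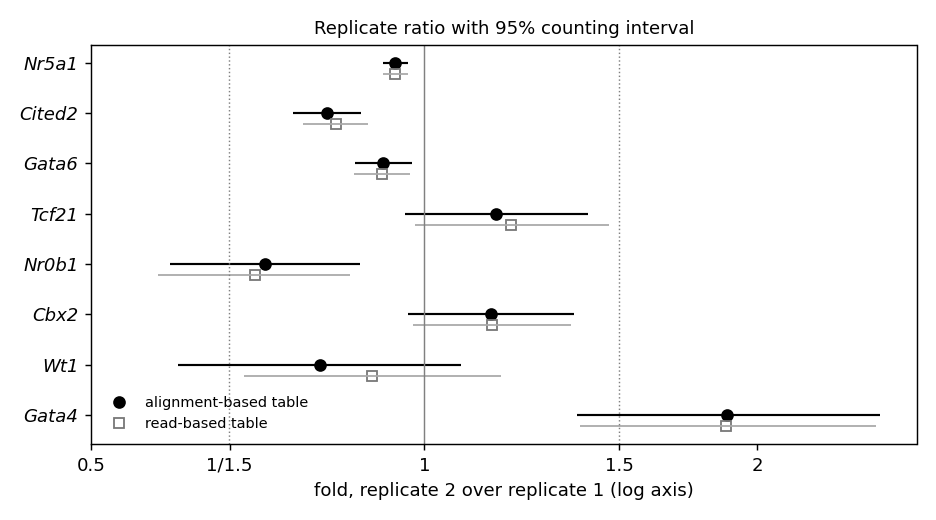
Ratio of replicate 2 over replicate 1 for each regulator on a log axis, with filled points and 95% counting intervals from scaled expected counts and open squares from the read-based table. Gata4 lies at 1.88 and the other 7 between 0.718 and 1.16.

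The annotated transcripts of these genes were compared in the authors' alignment-based and read-based transcript tables, since both give shares of the same reads. Transcripts of a gene share most of their exons, so each share is an estimate.

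The tables differed most for Nr5a1. Nr5a1-201 starts at the outer first exon (chr2:38714357-38714542, 186 bases) and Nr5a1-202 at an inner one (chr2:38712006-38712234, 229 bases), and both carry a coding length of 1386 bases. The alignment-based table gave Nr5a1-201 81.6% of the gene's TPM in replicate 1 and 83.5% in replicate 2, and Nr5a1-202 11.9% and 11.3%. The read-based table gave Nr5a1-201 1.55% and 5.15%, and Nr5a1-202 92.2% and 89.8%. Each table was alike in both libraries, and the leading transcript therefore depends on the table. The 2 models have 7 exons each and share 5 with the same bounds, so they differ beyond the first exon too. These shares are assignments to models and do not settle which first exon is in use. The cause was not tested. The gene total moved little, with 12557 estimated counts in replicate 1 in the read-based table against 12166 expected counts. The retained-intron transcript Nr5a1-203 held 6.46% and 5.24% in the alignment-based table and 6.25% and 5.03% in the read-based one.

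Gata6-201, the full-length coding transcript, held 75.2% of the gene's TPM in replicate 1 and 87.7% in replicate 2, and 68.7% and 79.0% in the read-based table. The 3 retained-intron transcripts of Gata6 summed to 11.1% and 7.87%. Gata6-206, a short coding model, held 9% and 4.42%.

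The leading transcript of Gata4 differed between the libraries. In replicate 1 its counts fell to Gata4-201 with 32.8 and to Gata4-203, a short form from an inner first exon, with 29.1. In replicate 2 Gata4-202 held 113 counts and those transcripts none. The read-based table gave Gata4-202 0 counts in replicate 1 and 107 in replicate 2, so the leading transcript differed in both tables. A short coding model with few counts took much of the remaining TPM, Gata4-204 with 14.6% and 28.1% in the alignment-based table and Gata4-205 with 0 and 26.3% in the read-based one. Gata4-201 and Gata4-202 differ at the 3 bases shown above and in the length of the first exon, and few reads cover either.

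For Wt1, the 5 coding transcripts with the 9-base insertion held 94.9 counts in replicate 1 and 78.5 in replicate 2, and the 2 without it, Wt1-202 and Wt1-204, held 0 in both. The read-based table gave 105 and 95.9 counts with the insertion and less than 1 count without it. These counts are assignments to annotated models that differ elsewhere too, not reads over the junction. In the alignment-based table, transcripts that include exon 5 (chr2:105144142-105144192, 51 bases) held 55.1 and 55.2 counts, and the other coding transcripts 39.8 and 23.3. The read-based table gave 72.3 and 55.2 counts with exon 5, and 33.0 and 40.8 for the others. The direction between the replicates for the forms without exon 5 therefore depended on the table. The leading transcript of Wt1 depended on the table. In the alignment-based table the full-length Wt1-205 held 33.5% and 53.5% of the gene's TPM, Wt1-203 33.5% and 2.76%, and Wt1-201, from an inner first exon, 15.2% and 28.1%. In the read-based table Wt1-203 was ahead of Wt1-205 in replicate 1, with 42.0% against 34.0%, and Wt1-201 in replicate 2, with 35.6% against 31.2%. The retained-intron transcripts held 17.8% and 15.7% in the alignment-based table.

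A single transcript led the others: Cited2-201 with 95.8% and 93.3% of the gene's TPM, Tcf21-201 with 99.0% and 98.6%, and Cbx2-201 with 96.9% and 92.3%. In the read-based table, Cbx2-201 held 87.7% and 81.4%, the remainder lying on the non-coding Cbx2-202.

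**Figure D3:**
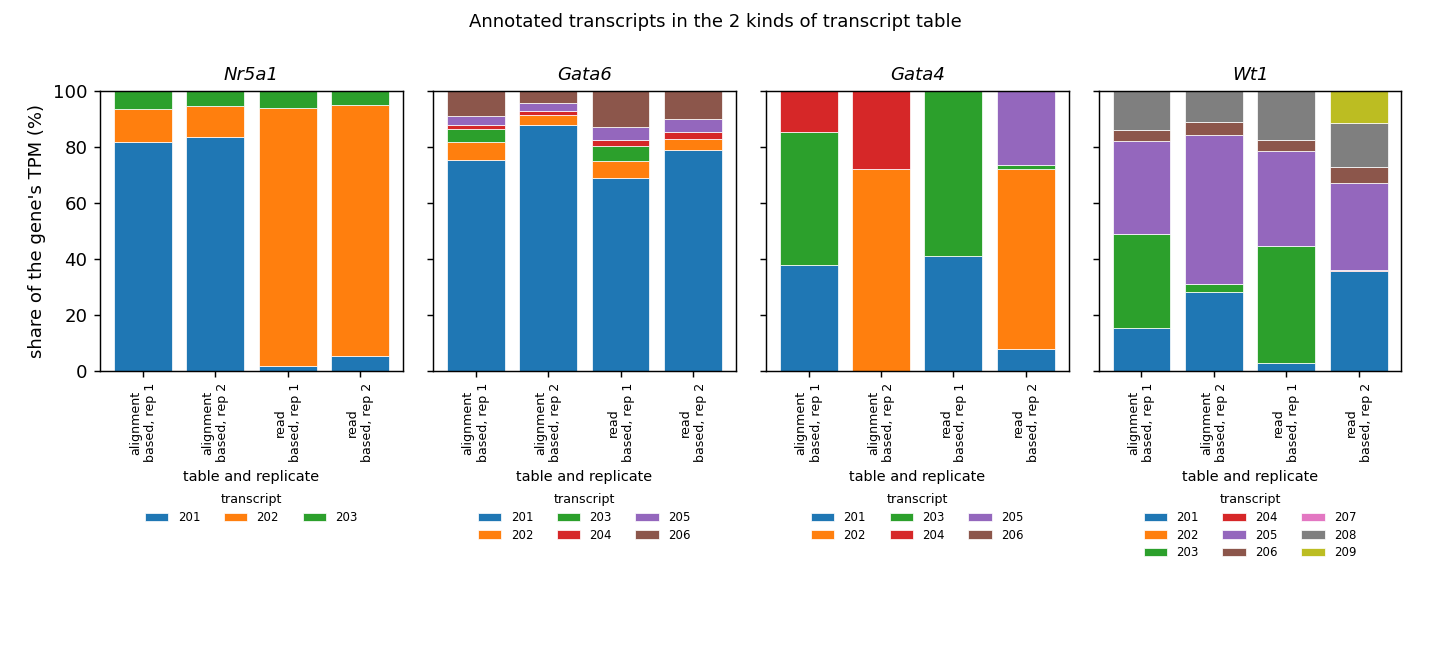
Share of the gene's TPM held by each annotated transcript, in percent, as stacked bars for Nr5a1, Gata6, Gata4 and Wt1, with 1 bar per replicate and table. Transcript 201 of Nr5a1 fills 81.6% and 83.5% of the alignment-based bars and 1.55% and 5.15% of the read-based ones.

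Genes on the opposite strand could lend reads to these values. The library kit is directional, per the labels' protocols, but the strand setting of the counting is not given in the sources used here. Nr5a1os overlaps Nr5a1 by 1867 bases and had 8 and 1 counts, and Gm10824 covers the 2894 bases of Tcf21 and had 6 and 2. Wt1os does not overlap Wt1 but starts 18 bases from the start of Wt1, and had 15 and 4 counts. 1010001N08Rik overlaps the start of Gata6 by 504 bases and stood at 7.15 and 5.72 TPM. Each was below its neighbour in both libraries.

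Relatives and partners of the regulators were described from lists of known family members and complexes. Among close relatives of NR5A1 and NR0B1, both genes reached 1 TPM. Nr5a2, the liver receptor homologue, was at 1.86 and 2.54 TPM with 206 and 383 counts, a ratio of 1.86 (1.57 to 2.21). Nr0b2, the small heterodimer partner, was at 7.09 and 5.97 TPM. Nr5a1 was thus the abundant NR5A gene, while Nr0b2 stood above Nr0b1 in both libraries. The hepatocyte markers were 3.14-fold higher in replicate 2, the library with more Nr5a2, and their part was not tested.

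Of 6 GATA and FOG genes, 4 reached 1 TPM in both libraries. Gata2, known from blood and sympathoadrenal cells, was at 7.43 and 8.73 TPM, and Gata3, a factor of the chromaffin lineage, at 4.69 and 4.07 TPM. Gata1 was at 0.21 and 0.39 TPM and Gata5 at 0.03 and 0.09 TPM. The FOG cofactors that bind GATA proteins were at 6.46 and 9.02 TPM for Zfpm1 and at 2.66 and 2.17 TPM for Zfpm2. Gata6 exceeded all other GATA genes in both libraries, and Gata4 was below Gata2 and Gata3.

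Of 7 CITED, p300/CBP and TFAP2 genes, 4 reached 1 TPM in both. Ep300 was at 21.5 and 16.9 TPM and Crebbp at 18.6 and 15.4 TPM, near the level of Cited2. The other CITED genes were far lower, Cited4 at 1.62 and 1.05 TPM and Cited1 at 0.65 and 0.55 TPM. Tfap2b, a factor of neural crest cells, was at 3.28 and 2.87 TPM, and Tfap2c had no count.

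Among 7 relatives and E-protein partners of TCF21, 5 reached 1 TPM. The E proteins with which such factors pair were above Tcf21, with Tcf4 at 49.4 and 43.0 TPM, Tcf12 at 29.1 and 27.4 TPM and Tcf3 at 19.9 and 19.3 TPM. All 5 WT1 partners reached 1 TPM, led by Ciao1 at 33.0 and 28.5 TPM, Wtap at 20.7 and 18.4 TPM and Wtip at 9.68 and 8.40 TPM. Each of these 3 was above Wt1.

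All 16 other genes of Polycomb repressive complex 1 reached 1 TPM. Among its subunits, Cbx6 was at 20.6 and 19.5 TPM, Cbx8 at 4.08 and 4.07 TPM and Cbx7 at 2.39 and 2.68 TPM. Phc2, a polyhomeotic subunit, was at 26.7 and 25.3 TPM. Cbx2 was lower than Cbx6, Cbx8 and Cbx7 in each library.

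All 6 coregulators of NR5A1 reached 1 TPM, among them Ctnnb1 (beta-catenin) at 233 and 215 TPM and the corepressor Ncor1 at 48.8 and 52.2 TPM. All 13 of its targets of steroid output did too, led by Hsd3b1 at 1854 and 1531 TPM, Star at 1611 and 1460 TPM and Cyp21a1 at 947 and 859 TPM. Every target was lower in replicate 2, with a median log2 ratio of -0.19. Cyp11b2, the aldosterone synthase, alone was past 1.5-fold, at 72.4 and 38.7 TPM. Of the 21874 genes with a ratio, 10677 were lower in replicate 2. All 8 chromaffin markers were lower too, with the same median of -0.19, so the shift was not particular to these targets.

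Of 12 other factors of the urogenital ridge and adrenal primordium, 9 reached 1 TPM in both libraries. Nr2f2 was at 30.02 and 26.0 TPM and Hoxb9 at 26.0 and 24.4 TPM. Emx2, with 2 and 3 counts, and Lhx9, with 5 and 8, which act with Nr5a1 in the early gonad, were near 0. Osr1, with 105 and 253 counts and a ratio of 2.41 (1.91 to 3.06), was past 1.5-fold. It is also made in connective tissue, whose 8 markers had a median log2 ratio of 0.46, with the uneven ratios given beside Gata4, and the part of that tissue was not tested.

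The median log2 ratios of these lists were 0.33 for the NR5A and NR0B relatives, 0.20 for GATA and FOG and -0.23 for CITED, p300/CBP and TFAP2. They were -0.09 for the relatives of TCF21, -0.08 for the WT1 partners and -0.01 for Polycomb. For the coregulators and the urogenital ridge they were -0.09 and -0.05, beside 0.00 over all genes. The value of 0.33 is the midpoint of 2 genes, Nr5a2 at 0.89 and Nr0b2 at -0.23. Without Gata1 and Gata5, whose mean counts were 20 and 7.5, the GATA and FOG median was -0.03, of opposite sign.

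**Figure D4:**
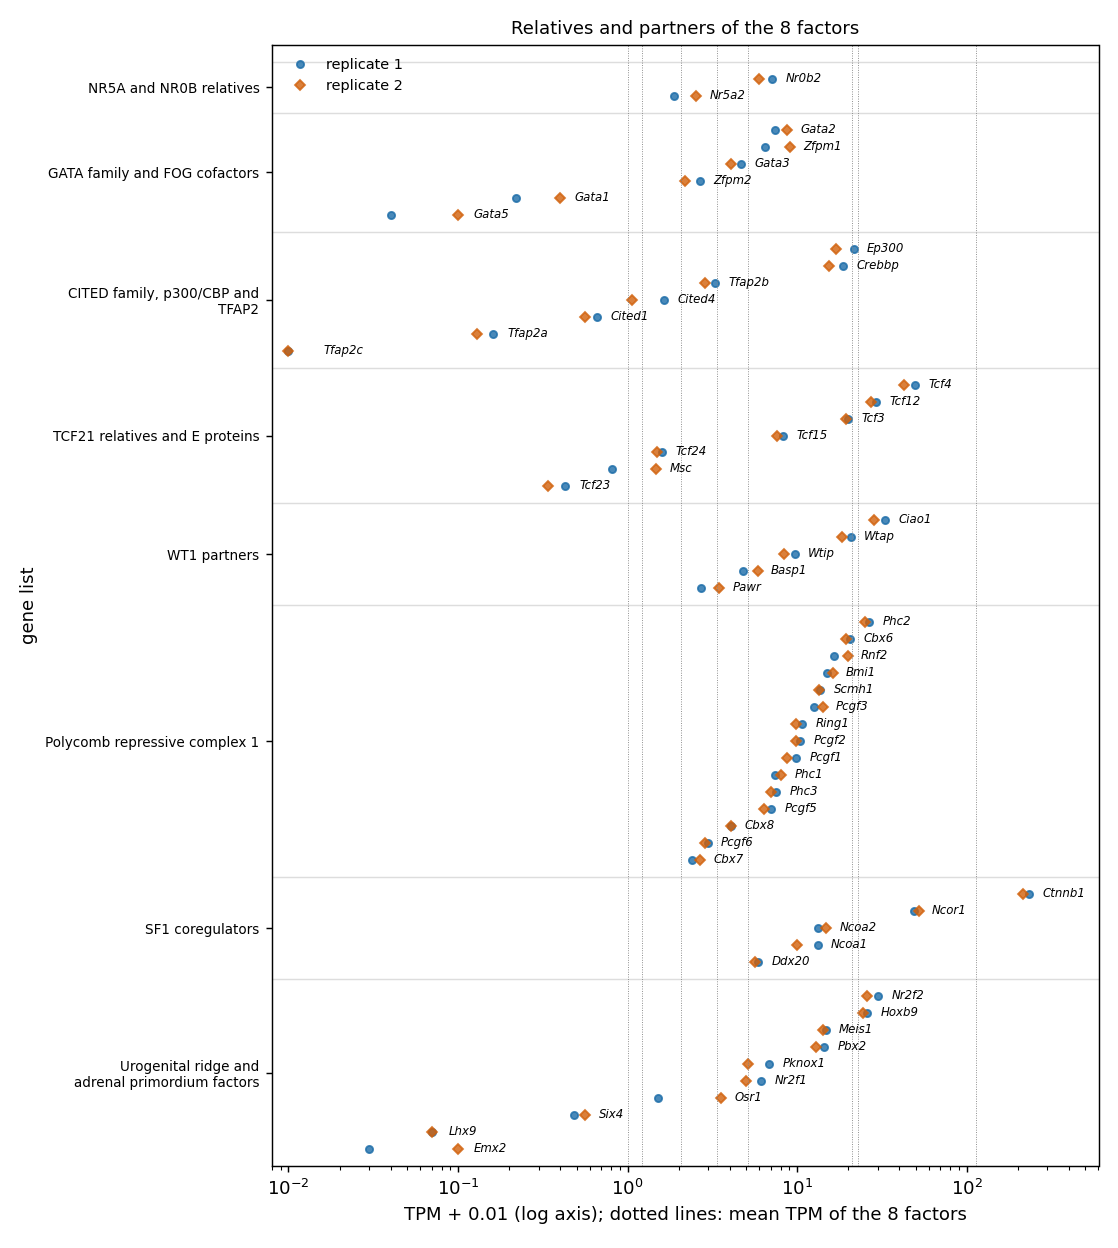
Level of listed relatives and partners in TPM plus 0.01 on a log axis, 1 point per replicate, grouped by list, with dotted lines at the mean TPM of the 8 regulators. Ctnnb1 lies farthest to the right at 233 and 215 TPM, and Tfap2c, with no count, at the left edge.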

How the data were processed

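Total RNA from 2 adrenal gland samples of 1 group was analysed. Per the notes deposited with the tables, the authors derived gene and transcript tables from alignments to the transcriptome (mm10, GENCODE M21) and a further transcript table directly from the reads. The column names are those of RSEM and kallisto; for tools and versions, the sources used here name none. The deposited tables give expected counts (not normalised), estimated counts, TPM over all entries, the percent of a gene's TPM per transcript, and the authors' interval bounds of TPM. Here, counts were scaled by TMM (edgeR 4.0.16, R 4.3.3), log2 ratios took a prior of 0.5 counts, and fold intervals used scipy 1.17.1. No test was run, since there is 1 group. Reads carry no molecular identifiers, so intervals cover counting error only.

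The 8 genes and all lists were chosen with earlier results of these data known. The text names all 8, from each list the 3 most abundant genes and those past 1.5-fold with a mean of at least 100 counts, all GATA, CITED, CBX, NR5A and NR0B genes, genes overlapping a member, and transcripts with at least 5% of the gene's TPM that bear on a result. Values of certain single genes that this rule takes are left out. No gene was named for a pattern like a member's, since 2 libraries of 1 group hold none. Promoters were held for Nr0b1, Cited2 and Tcf21. Alternatives covered the other table, TPM over nuclear protein-coding genes, posterior mean TPM, scaling by DESeq2 1.42.0 size factors, library total, spike-in total or nuclear protein-coding total, pseudocounts, priors, thresholds and each replicate alone.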

Additional observations from a re-analysis of the deposited data

How the results depend on the processing

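All 56 alternatives of the replicate ratios of the 8 regulators kept their sign, and 53 lay inside the counting interval. The exceptions were those of Nr5a1, -0.16 on the log2 scale by library total, -0.14 by spike-in total and -0.17 by nuclear protein-coding total, against -0.09 by TMM. Levels in TPM depend on the table and the denominator. The read-based table gave means of 162 for Nr5a1, 36.3 for Cited2, 33.7 for Gata6, 7.27 for Tcf21, 4.92 for Nr0b1, 3.43 for Cbx2 and 2.31 for Wt1. Over nuclear protein-coding genes alone they were 343 for Nr5a1, 68.6 for Cited2, 63.5 for Gata6, 15.4 for Tcf21, 10.2 for Nr0b1, 6.21 for Cbx2, 3.67 for Wt1 and 2.99 for Gata4, since fewer genes share the total. The number of regulators at their place in the order was 6 without replicate 1 and 8 without replicate 2 or in the read-based table. With a pseudocount of 1 TPM, Gata6 over Gata4 was 3.47 and Nr5a1 over Nr0b1 4.73 on the log2 scale, as a pseudocount pulls low levels together.

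The main transcript share in the read-based table averaged 3.35% for Nr5a1-201, 96.9% for Tcf21-201 and 84.5% for Cbx2-201; the cause was not tested. The 1005 genes over 1.5-fold higher and 112 lower in replicate 2 became 2160 and 795 at a mean of at least 10 counts, 246 and 24 at 1000, and 576 and 15 past 2-fold. By library total 172 were lower. Past 2-fold at 10 counts, chosen after seeing the data, 226 were lower. Wt1 and Gata4, with at most 120 counts in a library, are limited most by depth. No paired analysis was possible because there is a single group.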
